A study of Mus musculus with 6 samples.

Results

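The collagen genes described here are Col1a1, Col1a2, Col3a1, Col5a1, Col5a2, Col5a3, Col6a1, Col6a2, Col6a3 and Col14a1, which encode chains of the fibrillar and fibril-associated collagens of the liver scar. They were chosen by symbol from a list of names, with no threshold on their values, but with earlier results of these data known. The 10 genes were found among 25403 genes listed for mouse liver RNA, and all 10 were among the 14496 genes with enough counts to be tested. Poly(A) RNA was sequenced from 3 livers labelled WT (wild-type C57BL6/J) and 3 livers labelled Themis-KO, from mice with whole-body inactivation of Themis, a gene best known for its role in T cell receptor signaling. All 6 mice had received the MASH diet, a regimen that causes metabolic dysfunction-associated steatohepatitis, whose energy came to 40% from fat and to 20% from fructose and which held 2% cholesterol. Feeding began at 10 to 12 weeks of age and lasted 3 months. Livers of mice on other diets were not analysed here, the knockout removes the gene from T cells as well as from liver cells, and the labels do not give the background strain of the Themis-KO mice or the sex of any mouse. The comparison asks how the inactivation of Themis bears on the scar collagens of the steatohepatitic liver.

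Fibrillar collagens are secreted as triple helices that pack side by side into the tensile fibers of scar tissue. Type I and type III collagen form the bulk of these fibers in the fibrotic liver, and type V collagen sits within the type I fibril, where it starts fibril assembly and limits fibril diameter. Type VI collagen builds beaded microfilaments around cells, and type XIV collagen binds to the surface of fibrils, so the 4 genes of these types are not fibrillar collagens in the strict sense. Hepatic stellate cells and portal fibroblasts are the main sources of these chains in the injured liver.

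The helix needs a glycine at every turn of its tight repeat, and this repeat can be read from the genes themselves. For 6 of the genes a coding exon of 54 bases is shown, a length frequent in the fibrillar genes and rare in the beaded and fibril-surface collagens. The exons are printed from 5′ to 3′ on the coding strand, with the GG of the glycine codon (GGN) that opens each triplet of codons in capitals. They were read from GENCODE vM21 transcripts of GRCm38.
Col1a1 exon 8 (chr11:94939904-94939957, + strand): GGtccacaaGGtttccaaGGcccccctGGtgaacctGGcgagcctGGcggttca
Col1a2 exon 8 (chr6:4515481-4515534, + strand): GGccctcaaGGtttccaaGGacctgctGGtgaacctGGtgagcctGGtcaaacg
Col3a1 exon 6 (chr1:45325360-45325413, + strand): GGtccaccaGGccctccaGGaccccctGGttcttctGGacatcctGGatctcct
Col5a3 exon 15 (chr9:20801068-20801121, - strand): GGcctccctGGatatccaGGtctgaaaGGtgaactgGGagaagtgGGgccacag
Col6a3 exon 16 (chr1:90795915-90795968, - strand): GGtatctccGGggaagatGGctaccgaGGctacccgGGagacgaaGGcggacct
Col14a1 exon 37 (chr15:55467960-55468013, + strand): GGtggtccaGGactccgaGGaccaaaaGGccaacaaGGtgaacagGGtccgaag
Each exon holds 6 such triplets, and glycine codons at other places of a triplet are left in lower case. The exons of Col1a1 and Col1a2, whose products join in the same helix, carried the same base at 42 of 54 positions.

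The annotation separates the members into a group with long glycine repeats and a group with short ones. In the 6 type I, III and V genes, the longest unbroken run of codon triplets opening with a glycine codon spanned 337 to 344 triplets, and 21 to 31 inner coding exons were 54 bases long. The run was 87 triplets in Col6a1 and in Col6a2, 45 in Col6a3 and 32 in Col14a1, and these 4 genes had 2 to 4 such exons. All 10 are protein-coding genes. On GRCm38, Col1a1 lies at chr11:94936224-94953042, Col1a2 at chr6:4504814-4541544, Col5a1 at chr2:27886425-28039514 and Col14a1 at chr15:55307750-55520803, all on the forward strand. Col5a3 lies on the reverse strand at chr9:20770050-20815067 and Col6a3 at chr1:90765923-90843971. Col3a1 (chr1:45311538-45349706, forward strand) and Col5a2 (chr1:45374321-45503282, reverse strand) are neighbors whose 3′ ends face each other over 24614 bases, with 0 other protein-coding genes between them. Col6a2 (chr10:76595762-76623630) and Col6a1 (chr10:76708792-76726168) are neighbors 85161 bases apart on the reverse strand.

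The libraries held between 20679642 and 25649767 estimated counts, and the 100 most abundant genes took 39.6% to 43.1% of them. Behind each collagen value stand 174 to 4390 counts per liver. Library sizes were scaled by TMM, and levels are given as CPM, the counts scaled to a common library total. Themis itself did not separate the labels. The livers labelled WT (replicates 1, 2 and 3, in this order throughout) had 8.07, 25.6 and 12.0 CPM of Themis, against 8.63, 7.74 and 9.97 CPM in the livers labelled Themis-KO (log2 fold change −0.79, SE 0.38, edgeR adjusted p = 0.199). Each direction therefore rests on the labels. WT replicates 1 and 2 also differed from the other 4 livers in a mitochondrial signal, since Gm28438, a nuclear copy of mt-Nd3, took 96.6% and 96.8% of the summed level of both genes in them and 2.20% to 3.26% in the rest. The difference between labels cannot be told apart from this mitochondrial type except through WT replicate 3. The labels do not say how litters or cages were assigned to the groups, and p-values measure only the spread between these livers.

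Collagen transcripts were higher in livers labelled Themis-KO for 8 of the 10 genes and lower for 0 (edgeR quasi-likelihood test, adjusted p under 0.05 over all genes tested). Among all 14496 genes, 9.11% were called in either direction and 4.97% were called higher. The called genes were Col1a1, Col1a2, Col3a1, Col5a1, Col5a2, Col6a1, Col6a3 and Col14a1, and their rises ran from 1.25-fold for Col14a1 to 2.21-fold for Col1a1. Col1a1 and Col1a2 were the 2 genes called higher at a rise of at least 2-fold, as were 1.86% of all genes. Col1a2 met this limit narrowly, at a log2 fold change of 1.0003, and its value ran from 0.88 to 1.14 over the alternative fits. The groups did not overlap in 9 of the 10 genes, with all Themis-KO values above all WT values, as in 17.7% of all genes, and Col5a3 was the exception. The median log2 fold change of the 10 genes was 0.75, against 0.0095 over all genes tested. In bulk tissue, more cells of a type and more RNA per cell cannot be told apart. The count of called genes depended on single livers, with 0 left without WT replicate 1 or without Themis-KO replicate 1, 2 without WT replicate 2 or without Themis-KO replicate 2, 9 without Themis-KO replicate 3 and 7 without WT replicate 3. The calls over all genes moved too, from 1321 to 44, 20, 76, 68, 4267 and 850 in these fits, in the same order. When the mitochondrial type entered the fit as a covariate, so that only 1 WT liver shared a type with the Themis-KO livers, 0 of the 10 genes were called, while the log2 fold changes of the other 9 genes remained between 0.31 and 0.93 and 8 genes had an unadjusted p under 0.05. In that fit 1524 of the 14496 genes had an unadjusted p under 0.05, and 3 were called.

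**Figure D1:**
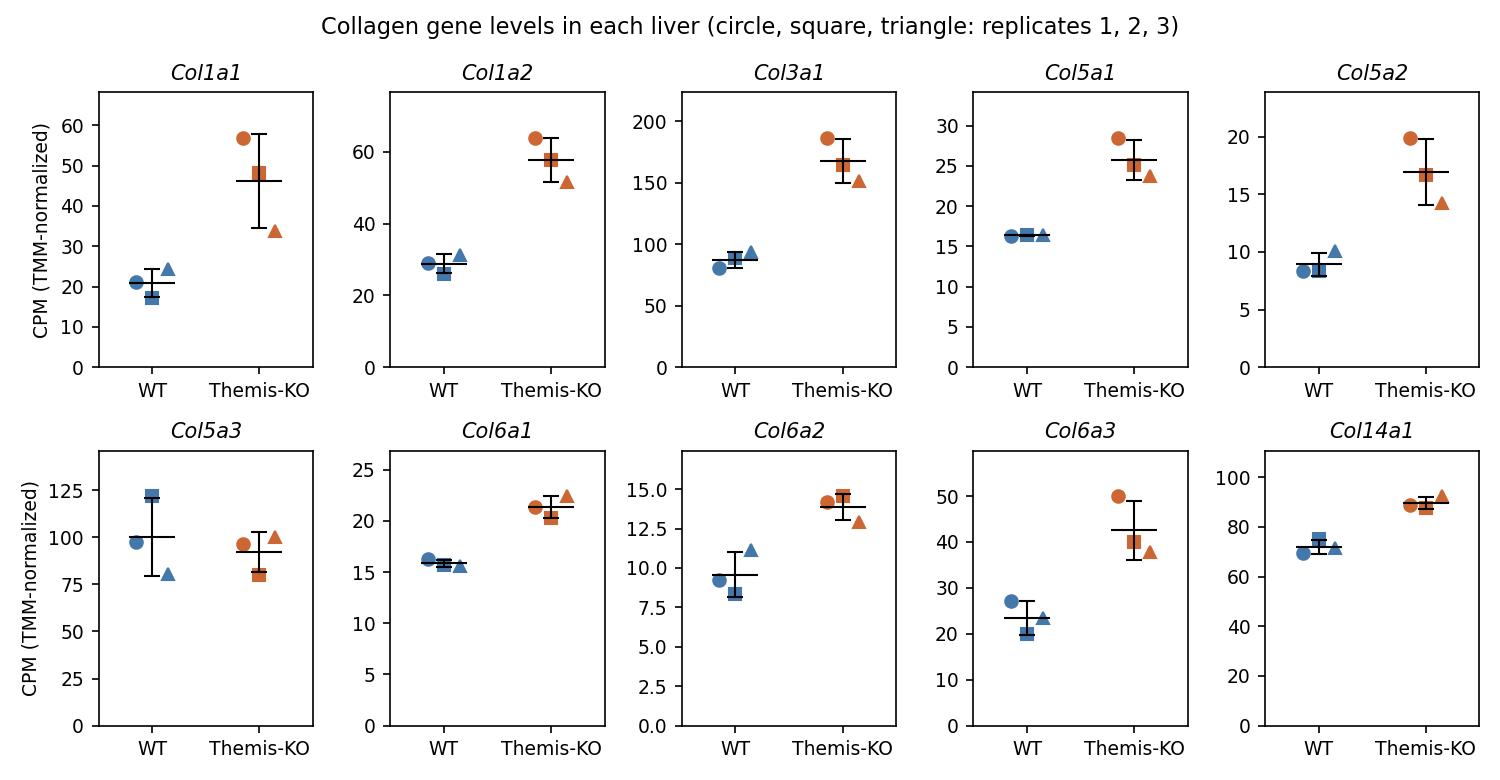
Level of each collagen gene in each liver, in TMM-normalized CPM on a linear axis from 0, with circles, squares and triangles for replicates 1, 2 and 3 and lines for the mean ± SD of 3 livers. The groups are separated in 9 panels and overlap for Col5a3, where WT replicate 2 is highest at 122 CPM.

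Transcripts of both chains of type I collagen, the main fiber of scar tissue, rose. Col1a1, the chain present in larger number in the type I helix, stood at 21.1, 17.3 and 24.3 CPM in the livers labelled WT and at 56.9, 48.2 and 33.8 CPM in those labelled Themis-KO. All 3 livers labelled Themis-KO were above the WT range, with replicate 1 highest and replicate 3 nearest to the WT livers. The log2 fold change of Col1a1 was 1.15 (SE 0.20, edgeR adjusted p = 0.0248), and its 95% interval ran from 0.68 to 1.62. This was the largest change among the 10 genes, and also the one with the widest interval, and the mean ± SD was 20.9 ± 3.52 CPM and 46.3 ± 11.7 CPM (n = 3 each). With single livers left out the log2 fold change of Col1a1 ran from 0.97 to 1.31.

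Col1a2, the partner chain in the type I helix, was measured at 29.1, 26.0 and 31.4 CPM in the livers labelled WT and at 63.9, 57.6 and 51.6 CPM in those labelled Themis-KO. The order of the 6 livers was the same as for Col1a1, but the groups were tighter. For Col1a2 this gave a log2 fold change of 1.00 (SE 0.11, edgeR adjusted p = 0.00936), a 2.00-fold rise. The lowest liver labelled Themis-KO exceeded WT replicate 3, the WT liver of the same mitochondrial type, by 1.64-fold for Col1a2 and by 1.39-fold for Col1a1.

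Type III collagen is a homotrimer that co-assembles with type I in the early, reticular fibers of the liver. Its gene Col3a1 read 80.4, 88.5 and 93.5 CPM in the livers labelled WT and 187, 165 and 151 CPM in those labelled Themis-KO. The lowest liver labelled Themis-KO was 1.62-fold above the highest WT liver. Col3a1 rose by 0.94 on the log2 scale (SE 0.11, edgeR adjusted p = 0.00936). Means ± SD were 87.4 ± 6.62 and 168 ± 17.8 CPM (n = 3 each). In these 3 genes the same liver, Themis-KO replicate 1, was highest, and Themis-KO replicate 3 was the lowest of its group. Col1a2 and Col3a1 kept an adjusted p under 0.05 in 4 of 6 fits with a liver left out, while Col1a1, Col5a1, Col5a2 and Col6a3 did so in 2.

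Of the 3 type V genes, Col5a1 and Col5a2 rose and Col5a3 did not pass the test. Col5a1, the chain found in most type V helices and the one that starts fibril assembly, read 16.3, 16.4 and 16.5 CPM in the livers labelled WT and 28.5, 25.1 and 23.7 CPM in those labelled Themis-KO. The WT livers were almost equal for this gene. Col5a1 rose by 0.65 on the log2 scale (SE 0.098, edgeR adjusted p = 0.0170).

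Col5a2, the usual partner of Col5a1, read 8.30, 8.35 and 10.1 CPM in the livers labelled WT and 19.9, 16.6 and 14.2 CPM in those labelled Themis-KO. The groups did not overlap, and Themis-KO replicates 1 and 3 were again the highest and lowest of their group. The log2 fold change of Col5a2 was 0.92 (SE 0.15, edgeR adjusted p = 0.0224).

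Col5a3, a chain found in a minor form of type V collagen, read 97.7, 122 and 80.5 CPM in the livers labelled WT and 96.3, 80.2 and 100.1 CPM in those labelled Themis-KO. The groups overlapped, with WT replicate 2 highest and Themis-KO replicate 2 lowest, and the WT livers spread more widely for Col5a3 than for any other member (mean ± SD 99.98 ± 20.7 CPM, n = 3). The log2 fold change of Col5a3 was −0.12 (SE 0.16, edgeR adjusted p = 0.644). Its 95% interval, from −0.48 to 0.25, lies below the estimates of the other 9 genes. The sign of this value was not stable. It was 0.024 with scaling by total counts alone, 0.046 without WT replicate 2 and 0.19 with the mitochondrial type in the fit.

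**Figure D2:**
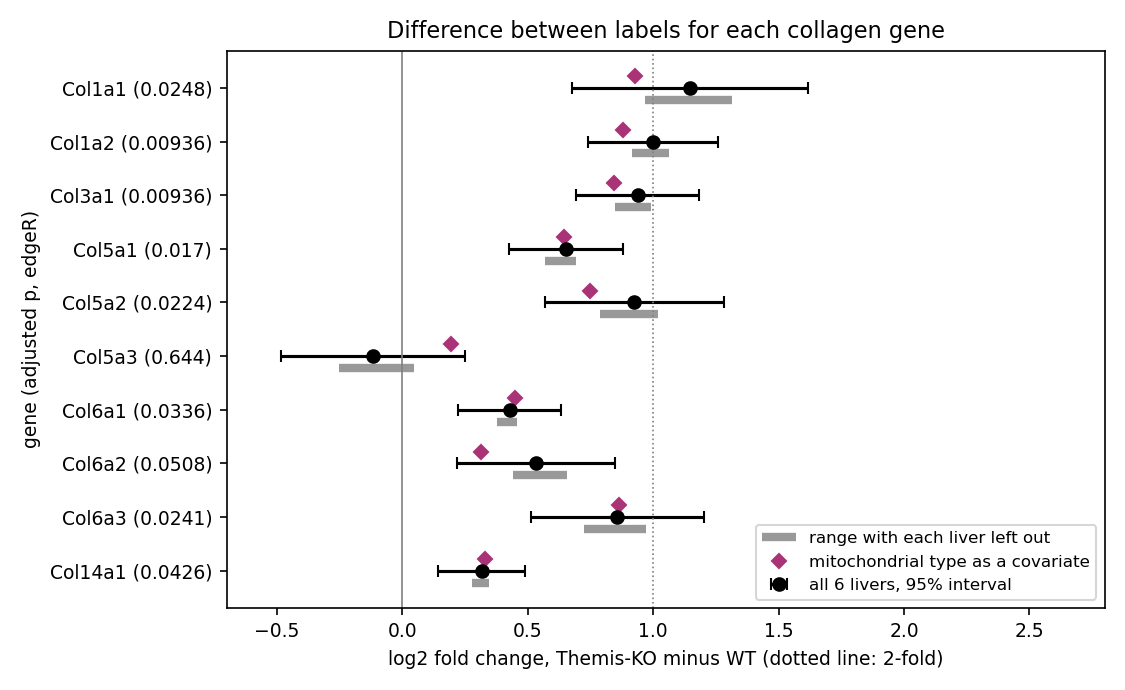
Log2 fold change of each collagen gene between livers labelled Themis-KO and WT, with the edgeR adjusted p beside the name. Points and thin lines give the estimate with its 95% interval from 6 livers, gray bars the range with each liver left out, and diamonds the estimate with the mitochondrial type as a covariate; 9 estimates are above 0 and that of Col5a3 is −0.12.

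Type VI collagen, whose 3 chains form the beaded filaments that anchor cells to the matrix, had 2 genes that rose and 1 that narrowly missed the threshold. Col6a1 was at 16.2, 15.7 and 15.6 CPM in the livers labelled WT and at 21.4, 20.3 and 22.4 CPM in those labelled Themis-KO. Both groups were tight and separate, and Themis-KO replicate 3 was the highest liver here, unlike in the type I, III and V genes that rose. Col6a1 rose by 0.43 on the log2 scale (SE 0.088, edgeR adjusted p = 0.0336).

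Col6a2 was at 9.22, 8.35 and 11.2 CPM in the livers labelled WT and at 14.2, 14.5 and 12.9 CPM in those labelled Themis-KO. The groups did not overlap, but the lowest liver labelled Themis-KO was only 1.16-fold above WT replicate 3. The log2 fold change of Col6a2 was 0.53 (SE 0.14, 95% interval 0.22 to 0.85), and its edgeR adjusted p of 0.0508 missed the threshold. DESeq2 gave Col6a2 an adjusted p of 0.0236.

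Col6a3, the long chain whose helix is flanked by many globular domains, was at 27.2, 19.9 and 23.4 CPM in the livers labelled WT and at 49.9, 39.9 and 37.8 CPM in those labelled Themis-KO. It changed most among the type VI genes. Col6a3 rose by 0.86 on the log2 scale (SE 0.15, edgeR adjusted p = 0.0241), a 1.81-fold rise, against 1.35-fold for Col6a1. Themis-KO replicate 1 was the highest liver for Col6a3, as in the type I genes.

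Col14a1, the fibril-surface collagen of the list, read 69.4, 75.0 and 71.3 CPM in the livers labelled WT and 88.8, 87.8 and 92.3 CPM in those labelled Themis-KO. The groups were separate and each spanned only a few CPM. Its log2 fold change of 0.32 (SE 0.075, edgeR adjusted p = 0.0426) was the smallest among the genes that passed the test. Col6a1 and Col14a1 passed in 1 of 6 fits with a liver left out. Over the same fits the log2 fold change ran from 0.38 to 0.46 for Col6a1 and from 0.28 to 0.35 for Col14a1.

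To compare levels between genes, CPM was divided by the length in kilobases of each gene's transcript with the longest coding sequence. On this per-length scale, Col5a3 (16.3 ± 3.38) and Col3a1 (15.7 ± 1.19 CPM per kilobase, SD, n = 3) were the most abundant members in the livers labelled WT, and their ranges overlapped. Col14a1 followed at 11.1 ± 0.44 CPM per kilobase, then Col1a2 at 5.39 ± 0.50, Col6a1 at 3.87 ± 0.082 and Col1a1 at 3.52 ± 0.59, of which the last 2 did not differ beyond their spread. Col6a2 and Col6a3, at 2.43 ± 0.37 and 2.32 ± 0.36, overlapped too. Col5a1 (1.95 ± 0.0077) and Col5a2 (1.34 ± 0.15) were the lowest.

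In the livers labelled Themis-KO, Col3a1 stood alone at the top with 30.1 ± 3.19 CPM per kilobase. Col5a3 (15.1 ± 1.73) and Col14a1 (13.9 ± 0.37) followed with overlapping ranges, then Col1a2 (10.8 ± 1.15) and Col1a1 (7.80 ± 1.97). Col1a1 thus stood above Col6a1 (5.2 ± 0.26) in all 3 of these livers. Summed over the 10 genes, the per-length level was 62.3 to 66.3 CPM per kilobase in the livers labelled WT and 90.6 to 104.7 in those labelled Themis-KO. Of that sum the share of Col3a1 was 23.2% to 26.5% in WT and 30.0% to 32.0% in Themis-KO livers, and the share of Col5a3 was 20.8% to 30.0% and 14% to 18%. Neither share overlapped between the groups, and the share of a gene also moves with the levels of the other 9.

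**Figure D3:**
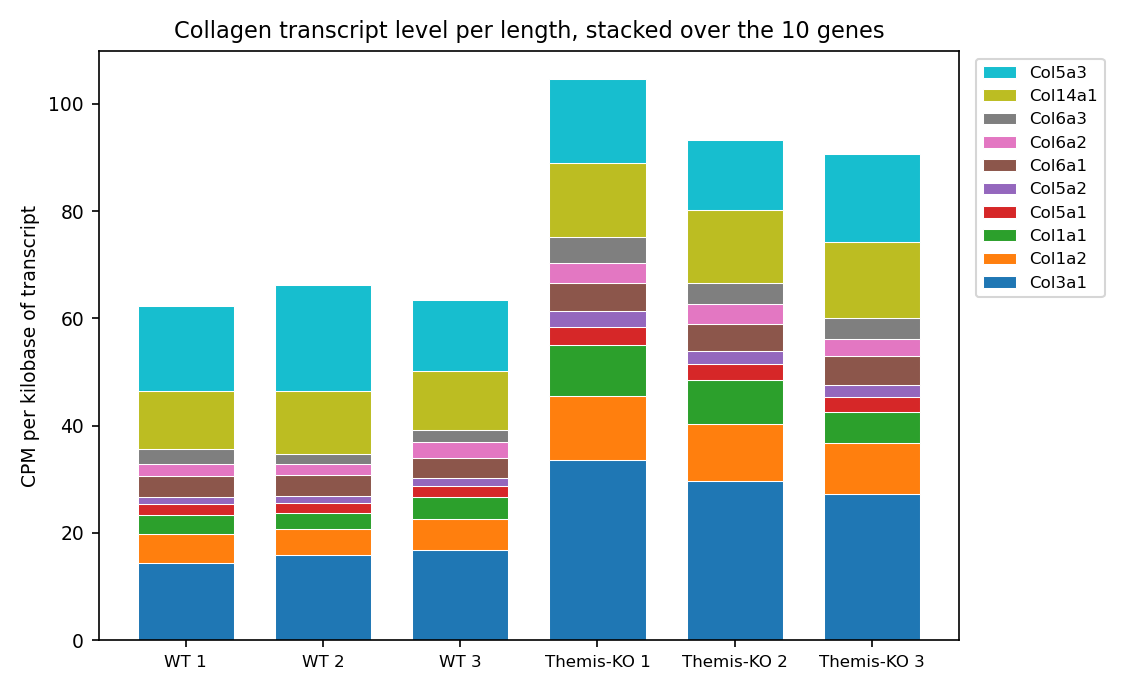
CPM per kilobase of transcript of the 10 collagen genes, stacked for each of the 6 livers. The stacks reach 62.3 to 66.3 in livers labelled WT and 90.6 to 104.7 in livers labelled Themis-KO, while the Col5a3 segment takes 13.2 to 19.9 in the first group and 13.1 to 16.4 in the other.

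Ratios between chains within a library do not depend on how libraries are scaled. The 8 ratios compared were of chains that share a helix, a filament or a fibril, on the per-length scale. The exact two-sided permutation test of 3 livers against 3 cannot give a p below 0.1. The ratio of Col1a1 to Col1a2 was 0.653, 0.599 and 0.699 in the livers labelled WT, against 0.803, 0.754 and 0.591 in those labelled Themis-KO. The groups overlapped, and Themis-KO replicate 3 had the lowest ratio of all (exact permutation p = 0.5). The ratio of Col3a1 to Col1a1 was 4.07, 5.46 and 4.10 in the livers labelled WT and 3.49, 3.65 and 4.78 in those labelled Themis-KO, again with overlap (exact permutation p = 0.5). The difference between labels was 0.13 on the log2 scale for the first ratio and −0.19 for the other one, and leaving out single livers moved them from 0.040 to 0.26 and from −0.33 to −0.054.

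Within type V, the ratio of Col5a3 to Col5a1 lay below the WT range in every liver labelled Themis-KO, with 8.22, 10.2 and 6.72 in the livers labelled WT and 4.65, 4.39 and 5.80 in those labelled Themis-KO. The ratio of Col5a2 to Col5a1 overlapped between the groups, at 0.689 ± 0.075 and 0.830 ± 0.064 (SD, n = 3 each). Within type VI, the ratio of Col6a3 to Col6a1 was 0.680, 0.514 and 0.608 in the livers labelled WT and 0.948, 0.799 and 0.686 in those labelled Themis-KO. These did not overlap, though WT replicate 1 and Themis-KO replicate 3 were close. The ratio of Col6a2 to Col6a1 overlapped, at 0.628 ± 0.10 and 0.678 ± 0.073. Col14a1 to Col1a1 ranged from 2.7 to 3.99 in the livers labelled WT and from 1.43 to 2.51 in those labelled Themis-KO, while Col5a1 to Col1a1 overlapped at 0.564 ± 0.096 and 0.405 ± 0.078. The 3 ratios without overlap had the smallest p the test allows (exact permutation p = 0.1) and a Benjamini-Hochberg adjusted value of 0.267 over the 8 ratios.

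**Figure D4:**
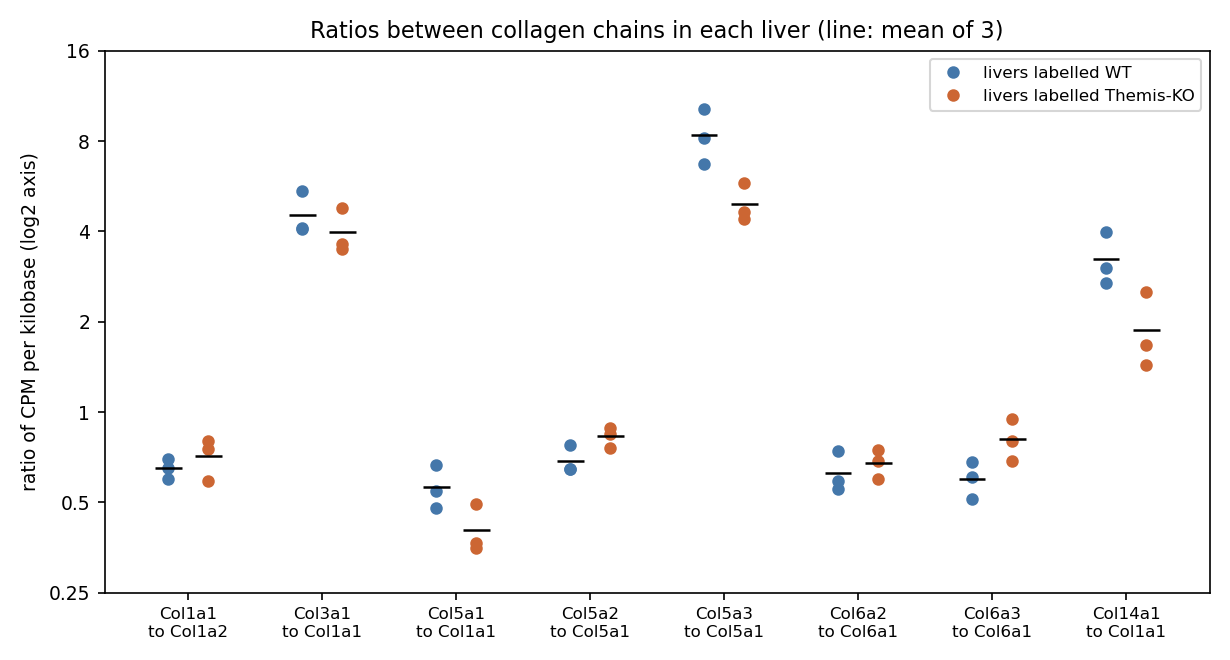
Ratios of CPM per kilobase between collagen chains in each liver, on a log2 axis, with a line at the mean of 3 livers. The groups are separate for Col5a3 to Col5a1, Col6a3 to Col6a1 and Col14a1 to Col1a1, and they overlap for the other 5 ratios.

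The order of the livers was shared by some of the members. In Col1a1, Col1a2, Col3a1, Col5a1, Col5a2 and Col6a3, Themis-KO replicate 1 was highest and Themis-KO replicate 3 lowest of its group, and WT replicate 3 was the highest WT liver in 6 of the 10 genes. Themis-KO replicate 3 was the highest liver for Col6a1 and Col14a1, Themis-KO replicate 2 for Col6a2 and WT replicate 2 for Col5a3. The mean standardized profile of the 10 genes over the 6 livers correlated with 9 of them at r between 0.90 and 0.997 and with Col5a3 at −0.24. These are descriptions over 6 points that share the 2 labels and their libraries, and each gene is part of the mean. Among 13033 other genes with a mean of at least 1 CPM, the genes most like this profile were Gas6 (r = 0.999), Itpkb, Cyb5r1 (both 0.993), Il34 and Tuba1a (both 0.991), and 234 genes reached 0.95. Gas6, a ligand of the TAM receptor tyrosine kinases, read 71.9, 71.3 and 75.9 CPM in the livers labelled WT and 155.9, 128 and 133 CPM in those labelled Themis-KO.

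Other collagens of the same classes followed no single direction. Of 14 further fibrillar and fibril-associated collagen genes, 7 had enough counts to be tested, of which 1 rose and 1 fell. Their median log2 fold change was −0.03. Over all genes tested, 9.11% were called in either direction. Col16a1, a fibril-associated chain, went from 7.11, 7.01 and 6.98 CPM in the livers labelled WT to 11.6, 10.8 and 11.8 CPM in those labelled Themis-KO (log2 fold change 0.69, edgeR adjusted p = 0.0209). Col20a1, of the same class, fell by 1.17 on the log2 scale, from 2.36 ± 0.26 to 1.05 ± 0.34 CPM (edgeR adjusted p = 0.0436). Col27a1, a fibrillar chain known from cartilage, read 91.7, 142 and 80.9 CPM in the livers labelled WT and 63.1, 40.4 and 98.8 CPM in those labelled Themis-KO, with overlap and an adjusted p of 0.225.

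Over the whole collagen family, 41 genes were listed and 31 tested. Of the 21 tested genes that are not members, 4 rose and 1 fell, and the median was 0.27, beside 4.97% of all genes called higher. The rises were those of the basement membrane chains Col4a1 (0.93 on the log2 scale, edgeR adjusted p = 0.0428) and Col4a5 (1.00, 0.0398), the network chain Col8a1 (1.29, 0.0356) and Col16a1. Col4a1 and its partner Col4a2 were lowest among livers labelled Themis-KO in replicate 3, at 94.5 and 59.8 CPM, and Col4a2 did not pass (0.46, edgeR adjusted p = 0.0701).

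Genes that make, bind, sense or break down collagen were read as lists. Over all genes tested, 4.97% were called higher and 9.11% were called in either direction. Of 31 tested genes of collagen biosynthesis and processing, 1 rose and 1 fell, with a median log2 fold change of 0.42. Lox, the oxidase that starts collagen crosslinking, read 0.826, 0.768 and 0.631 CPM in the livers labelled WT and 2.21, 1.94 and 1.46 CPM in those labelled Themis-KO (1.34 on the log2 scale, edgeR adjusted p = 0.0313). Colgalt2, which adds galactose to hydroxylysine in collagen, fell by 2.89 on the log2 scale from 1.13 ± 0.051 to 0.15 ± 0.078 CPM (edgeR adjusted p = 0.0129). The collagen chaperone Serpinh1 (0.73, adjusted p = 0.0893) and the procollagen peptidase enhancer Pcolce (0.42, adjusted p = 0.0542) did not pass.

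Among 14 tested proteoglycans and other fibril partners, 7 rose and 0 fell, with a median of 0.40, beside 4.97% of all genes called higher. The largest rises were those of Fmod (fibromodulin, 1.16 on the log2 scale, edgeR adjusted p = 0.0439), Lum (lumican, 0.85, 0.0351), Postn (periostin, 0.82, 0.00936) and Sparc (osteonectin, 0.67, 0.0112). Postn was at 19.3, 18.1 and 20.4 CPM in the livers labelled WT and at 32.5, 35.2 and 34.7 CPM in those labelled Themis-KO, tight in both groups. The other genes that rose were Dcn, Bgn and Prelp, also small leucine-rich proteoglycans, by 0.39, 0.40 and 0.35. Of 10 collagen receptors 3 rose and 0 fell. These were the receptor tyrosine kinase Ddr1 (1.54, edgeR adjusted p = 0.0223), the integrin chain Itga2 (1.37, 0.0460) and the endocytic receptor Mrc2 (0.91, 0.0302). The median of the receptors was 0.18.

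Of 9 tested genes of collagen degradation, 4 rose and 0 fell, with a median of 0.93, beside 4.97% of all genes called higher. Mmp13, an interstitial collagenase, read 1.38, 1.54 and 2.57 CPM in the livers labelled WT and 11.9, 6.41 and 4.30 CPM in those labelled Themis-KO (2.03 on the log2 scale, edgeR adjusted p = 0.0326). Timp1, an inhibitor of these proteases, read 0.872, 0.768 and 1.62 CPM and 4.89, 4.52 and 2.13 CPM (1.80, adjusted p = 0.0386). For both genes Themis-KO replicate 3 was nearest to the WT livers. Mmp14 and Mmp2 rose by 0.72 and 0.66. With the mitochondrial type as a covariate, 0 genes of the whole table were called higher, so that no gene of these lists passed as higher. The 1321 calls over all genes also became 20 without Themis-KO replicate 1, 44 without WT replicate 1, 68 without Themis-KO replicate 2, 76 without WT replicate 2, 850 without WT replicate 3 and 4267 without Themis-KO replicate 3.

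**Figure D5:**
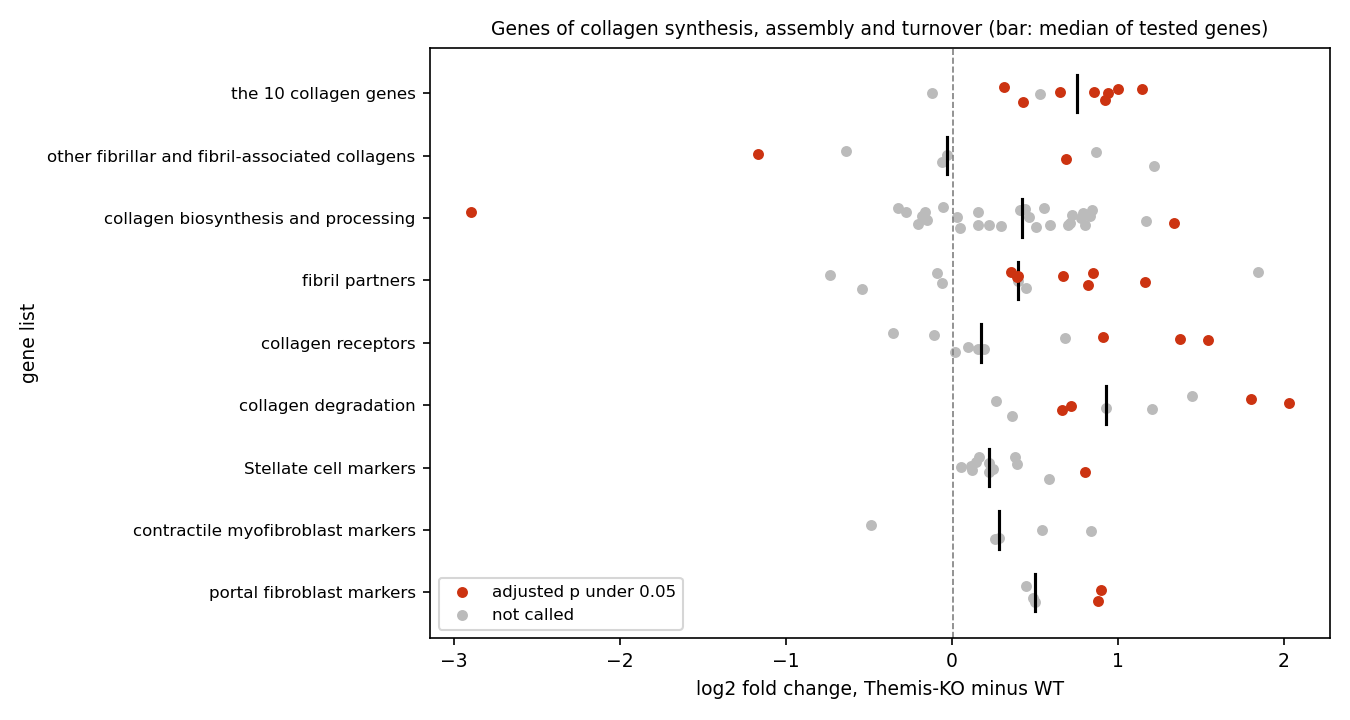
Log2 fold change of each tested gene in lists of collagen synthesis, assembly, sensing, turnover and source cells, with genes at an edgeR adjusted p under 0.05 in red and black bars at the list medians. The median of the 10 collagen genes is 0.75, that of the degradation genes 0.93 and that of the other fibrillar and fibril-associated collagens −0.03, beside 0.0095 over all genes (dashed line).

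Markers of the cells that could hold these transcripts were read beside the collagens. All 12 stellate cell markers were tested, and 1 of them rose, with a median log2 fold change of 0.22, beside 4.97% of all genes called higher. It was Pdgfrb, the receptor for platelet-derived growth factor B, at 13.3, 12.1 and 13.4 CPM in the livers labelled WT and 27.0, 24.1 and 16.5 CPM in those labelled Themis-KO (0.80 on the log2 scale, edgeR adjusted p = 0.0386). Ecm1 (0.14) and Rgs5 (0.39), the most abundant markers of that list, had adjusted p of 0.402 and 0.0850. The summed stellate level was 329 to 349 CPM in WT and 379 to 440.1 CPM in Themis-KO livers, a 1.18-fold difference, and none of its markers was at 0. Over the same livers the summed CPM of the 9 collagen genes without Col5a3 was 275 to 297 in WT and 440.1 to 529.9 in Themis-KO livers, a 1.70-fold difference. The ratio of the 9 genes to the stellate markers was 0.841, 0.798 and 0.852 in the livers labelled WT and 1.37, 1.25 and 1.00 in those labelled Themis-KO, without overlap (exact two-sided permutation p = 0.1). This ratio is built on the same 9 genes, a set that leaves out the member whose groups overlapped, and is no separate support for their rise.

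Of 5 tested contractile myofibroblast markers 0 were called, beside 9.11% of all genes, and 4 had a positive log2 fold change. The most abundant of them, Cald1 and Tpm2, went in opposite directions (0.26 and −0.49, edgeR adjusted p = 0.0965 and 0.0513). Tpm2 was lower in every liver labelled Themis-KO than in any liver labelled WT (14.7 ± 0.38 against 20.6 ± 3.15 CPM). Acta2, smooth muscle actin and a marker of activated stellate cells, read 5.0, 4.22 and 5.25 CPM in the livers labelled WT and 10.6, 10.5 and 4.77 CPM in those labelled Themis-KO, so that Themis-KO replicate 3 lay within the WT range (0.84 on the log2 scale, edgeR adjusted p = 0.105). In that liver Col1a1, Col1a2 and Col3a1 were still above every WT liver. Of 8 portal fibroblast markers 5 were tested, and Eln (elastin, 0.90, edgeR adjusted p = 0.0241) and Cd34 (0.88, 0.0442) rose. Their summed level was 10.5 to 12.2 CPM in WT and 18.7 to 22.7 CPM in Themis-KO livers, and Gli1 and Clec3b were at or below 0.340 CPM in all 6 livers. Of 3 tested smooth muscle and 2 tested mesothelial markers 0 were called, with summed levels of 4.37 to 6.74 against 5.82 to 6.56 CPM and 0.505 to 1.54 against 0.614 to 1.70 CPM.

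Markers of cells that are not main sources of fibrillar collagen were read in the same way, beside 9.11% of all genes called in either direction. Cholangiocyte markers summed to 153 to 193 CPM in WT and 387 to 615 CPM in Themis-KO livers, with Spp1 and Cldn7 called higher among 6, and Spp1 alone made up 137 to 180.1 and 366 to 571 CPM of these sums. Macrophage markers summed to 410.3 to 673 and 706 to 879 CPM, with Cd68 called among 8, and endothelial markers to 184 to 202 and 206 to 227 CPM, with Lyve1 called among 6. Hepatocyte markers summed to 0.810 of the WT level, with Serpina1c called lower among 10, and 1 of the 10 had a positive log2 fold change. The sums were 59488.5 to 64729.8 CPM in WT and 48969.3 to 53928.4 CPM in Themis-KO livers. Alb alone made up 39775.6 to 43023.5 and 33597.1 to 37327.2 CPM of these sums. None of these markers was at 0 in all livers, and their part in the collagen result was not tested.

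The promoters gave no pattern that the members shared. RefSeq starts on GRCm38.p6 were matched for 7 of the 10 genes, namely Col1a2, Col3a1, Col5a1, Col5a3, Col6a1, Col6a2 and Col6a3, and the 250 bases before each start were searched on both strands for 4 short motifs. These were the CCAAT box, the TATA motif as TATAA, the GC box as GGGCGG and the SMAD-binding motif as CAGAC. The CCAAT box was present in 2 of the 7 genes and in 33.8% of 32851 promoters, TATAA in 1 and 22.8%, GGGCGG in 4 and 32.7%, and CAGAC in 5 and 42.2%. The 7 genes had 8 promoter entries, as Col6a2 had more than 1 start, and a gene was counted where any entry matched. The shares count each entry, so the units differ. TATAA and its reverse complement overlap in TTATAA. The 150 bases before the start are shown for Col3a1, the most abundant gene that rose, and for Col5a3, the gene whose groups overlapped, with matches on either strand in capitals.
Col3a1 (chr1:45311388-45311537, + strand): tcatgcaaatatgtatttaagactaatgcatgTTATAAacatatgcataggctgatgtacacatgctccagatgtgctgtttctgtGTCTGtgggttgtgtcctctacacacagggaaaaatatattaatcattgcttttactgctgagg
Col5a3 (chr9:20815068-20815217, - strand): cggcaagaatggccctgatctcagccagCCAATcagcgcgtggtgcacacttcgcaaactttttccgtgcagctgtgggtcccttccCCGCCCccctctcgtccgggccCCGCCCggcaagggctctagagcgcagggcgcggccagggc
The Col3a1 window holds TATAA and, on the reverse strand, CAGAC. The Col5a3 window holds CCAAT and 2 GC boxes on the reverse strand.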

How the data were processed

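Liver RNA of 3 WT and 3 Themis-KO mice was compared. The authors trimmed paired-end reads of poly(A) libraries (cutadapt 2.3), mapped them to GRCm38 with STAR 2.7.8a and deposited estimated counts per gene from RSEM 1.3.3, not normalized and given as whole numbers. Reads that match more than 1 gene are shared out by RSEM, so similar genes affect each other. The annotation release is not given in the sources used here, and 25321 of 25403 listed genes were matched to GENCODE vM21.

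The fit used edgeR 4.0.16 in R 4.3.3 (TMM, filterByExpr, which left out 10907 genes, glmQLFit and glmQLFTest without covariates, Benjamini-Hochberg adjustment over 14496 genes, threshold 0.05). The common biological coefficient of variation was 0.157. SEs follow from each gene's F statistic and estimate. DESeq2 (here 1.42.0), the tool named in the study's methods, was an alternative, as were RLE, upper quartile and total-count scaling, other filters and thresholds, the replicate block, the mitochondrial type as a covariate and each liver left out. The fits were tested on simulated data. Single values were compared by exact permutation tests in scipy 1.17.1. Replicates differed by more than sampling noise (lowest chi-square per degree of freedom 9.80).

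The members and lists were chosen with earlier results of these data known. Named genes are the 10 members, Themis, Acta2, tested collagen genes, up to 4 called genes per list with the largest absolute log2 fold change (where fewer than 2 passed, the 2 with the highest mean CPM), and the 5 genes most like the members' mean profile. The genes listed for 5 or fewer calls, Serpinh1, Pcolce, Dcn, Bgn, Prelp, Gli1, Clec3b, mt-Nd3 and Gm28438 were named after their values were seen. Sequences are from GENCODE and RefSeq.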

Additional observations from a re-analysis of the deposited data

How the results depend on the processing

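Of the 10 collagen genes, 8 were called, and the number was 8 with RLE factors and without a filter, 7 with upper quartile scaling, and 9 with total counts alone, at least 10 counts in every liver, DESeq2 or an adjusted p under 0.1. It was 2 at an adjusted p under 0.01 and 2 with a 2-fold limit, 1 with the replicate block and 0 with the mitochondrial type as a covariate, and 0 to 9 with single livers left out. Over all genes the 1321 calls became 2179 without a filter, 2279 with DESeq2, 62 with the replicate block, 3 with the mitochondrial type, 43 at an adjusted p under 0.01, 2980 under 0.1, 431 with a 2-fold limit, and 20 to 4267 with single livers left out, lowest without Themis-KO replicate 1 and highest without Themis-KO replicate 3. Scaling by total counts alone moved the median log2 fold change from 0.0095 to 0.15 and the calls from 721 higher and 600 lower (54.6% higher) to 1449 and 387 (78.9%). At an unadjusted p under 0.05, 9 of the 10 collagen genes and 4449 of all 14496 genes passed in the fit reported, and 8 and 1524 did with the mitochondrial type.

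Deviations from the group means were not shared by livers of 1 replicate number (r of 0.00028, −0.24 and −0.16, mean −0.13), so the numbers were not taken as pairs. The mean of 0.066 for different numbers is no separate comparison, because deviations within a group sum to 0. With the replicate block the adjusted p of Col1a2 was 0.0486, and those of the other 9 genes ran from 0.0501 (Col6a3) to 0.761 (Col5a3). The ratios of Col1a1 to Col1a2 and of Col3a1 to Col1a1 differed by 0.13 and −0.19, values that the replicate block and the division by length cannot change by construction, and ran from 0.040 to 0.26 and from −0.33 to −0.054 with single livers left out.

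Of 140 alternative log2 fold changes of single collagen genes, 84 kept their direction and side of the threshold, 47 lost the call, 6 gained it, and 3 changed sign, all of Col5a3 (0.024 with total counts alone, 0.19 with the mitochondrial type, and 0.046 without WT replicate 2 in a range from −0.25 to 0.046 with single livers left out). The causes were not tested. Col5a2 and Col6a2 rest on the fewest reads, with 174 counts in WT replicate 2.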
